A study of Mus musculus with 6 samples.

Results

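The genes described here encode 10 cytokine chains that are made mainly by antigen-presenting cells. They are the interleukin-12 family subunit genes Il23a, Il12a, Il12b, Ebi3 and Il27, and the genes of the separate cytokines Il6, Il15, Il18, Il1a and Il1b. They were taken as a named list of 10 out of the 49671 genes in the deposited count tables and matched by gene identifier. The list was selected on cytokine family, and on the blocked log2 fold changes of Il23a under BiTS, which were already known. The Il23a values in the 2 comparisons with BiTS are thus a description and carry no test. The marker and pathway lists below were also chosen with earlier results of these data known, so counts of their genes are descriptions. RNA came from mouse cultures labelled as splenocytes and as naive primary CD8 T cells of OT-I genotype, whose transgenic T cell receptor recognises the ovalbumin peptide SIINFEKL, after 48 h of stimulation with that peptide. Every culture carried the same genotype and received the peptide. The groups differed in the added protein. Each of the treatments, isotype control, BiTS(mut) and BiTS, had 2 libraries. BiTS is a bispecific T cell silencer designed to bring the inhibitory receptor LAG-3 to the T cell receptor. No source used here describes the change in BiTS(mut), the dose, or the strain background, age and sex of the mice. The series compares the transcription of activated OT-I cells between the 3 treatments.

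Cytokines of the interleukin-12 family are dimers of an alpha chain and a beta chain. The p40 chain encoded by Il12b pairs with p35, encoded by Il12a, to form IL-12, and with p19, encoded by Il23a, to form IL-23. The chain encoded by Ebi3 pairs with p28, encoded by Il27, to form IL-27. Dendritic cells and macrophages produce these cytokines after contact with microbial products or with activated T cells, and IL-12 is known for driving interferon gamma production and effector differentiation in CD8 T cells. IL-15 sustains CD8 T cells, IL-6 is a broadly acting inflammatory cytokine, and IL-1 alpha, IL-1 beta and IL-18 belong to the IL-1 family, in which IL-1 beta and IL-18 are made as precursors and cut by caspase-1.

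Gene counts totalled 10813123 to 15239077 per library, so that the 3 counts that a count of 0 allows correspond to 0.197 to 0.277 CPM, the count relative to the TMM-scaled library total. This limit covers counting error only. The libraries formed 2 sets by the numbers in their titles. The first set, with numbers 1 to 3, held replicate 1 of each group, and the second, with numbers 4 to 6, held replicate 2 of BiTS, replicate 2 of BiTS(mut) and replicate 4 of isotype. These sets separated along principal component 1, which held 71.5% of the variance. The labels do not say what the numbers stand for, nor that replicates came from separate cultures or animals, and p-values here measure only the spread between these libraries. The T cell gene Cd3e was at 114 to 145 CPM in every library. Lag3, the gene of the receptor that BiTS is designed to engage, was at 542 to 654 CPM. Dendritic cell RNA was also present. The 18 dendritic cell markers examined summed to 2879 and 1475 CPM in isotype, 2938 and 1554 CPM in BiTS(mut) and 2506 and 1459 CPM in BiTS, the first set given first, and of them only Cd209a was at 0 in 5 of 6 libraries. The 14 macrophage and monocyte markers summed to 32.2 to 53.6 CPM, and the 8 neutrophil markers to at most 1.01 CPM, with S100a8, S100a9 and Retnlg at 0 in all libraries. The cell type label therefore does not describe all of the RNA, and in such bulk samples fewer cells of a type and less RNA per cell cannot be told apart.

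By their mean over the 6 libraries, Il23a and Il12b stood highest among the subunit genes, but not in every library. In TPM, a measure scaled for transcript length, Il23a averaged 39.1, Il12b 31.8, Ebi3 21.3 and Il27 6.54. In BiTS replicate 2, Ebi3 (13.3 TPM) was above both Il23a (11.8) and Il12b (11.6). Il23a lies on the minus strand at chr10:128296140-128298084, Il12b on the plus strand at chr11:44400063-44414033, Ebi3 on the plus strand at chr17:55952623-55957021 and Il27 on the minus strand at chr7:126589010-126594941 (mm10, coordinates of the deposited tables). Il12a, at chr3:68690644-68698547 on the plus strand, was too low to judge. Its counts were 2 and 0 in isotype, 0 and 4 in BiTS(mut) and 1 and 0 in BiTS, and the exact 95% Poisson interval of the highest count reached from 1.09 to 10.2 counts. It alone of the 10 genes failed the filter on low counts. RNA of the p35 chain of IL-12 was thus at or near the detection limit in every library, while RNA of its partner p40 was counted 101 to 540 times.

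**Figure D1:**
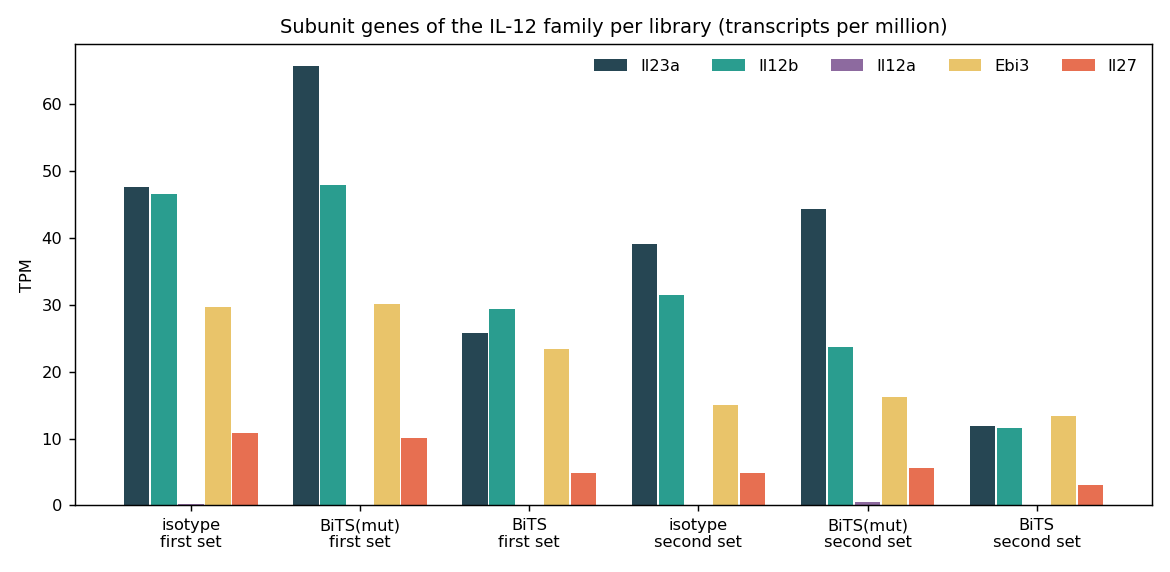
TPM of the 5 interleukin-12 family subunit genes (bars, 1 per gene) in each of the 6 libraries, first set on the left and second set on the right, with no error bars because each bar is 1 library. Il23a bars range from 11.8 TPM in BiTS replicate 2 to 65.8 TPM in BiTS(mut) replicate 1, and Il12a bars lie at or below 0.465 TPM.

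Among the other cytokines, Il15 averaged 10.02 TPM, Il1b 9.27, Il1a 3.02, Il18 2.27 and Il6 1.93. Several neighbours in this order did not keep it from library to library. Il23a was above Il12b in 5 of 6 libraries, Il15 above Il1b in 3 of 6, and Il1a above Il18 in 3 of 6. Ebi3, in contrast, was above Il15, and Il27 above Il1a, in 6 of 6 libraries. The loci are chr8:82331632-82403222 (minus strand) for Il15, chr2:129364570-129371139 (minus) for Il1b, chr2:129299610-129309972 (minus) for Il1a, chr9:50554827-50581840 (plus) for Il18 and chr5:30013114-30019981 (plus) for Il6. Il18 had 6 to 20 counts per library, Il6 9 to 56 and Il1a 6 to 58, so only large differences could be seen for these genes. Exons of 4 members overlap a gene on the opposite strand, and since no source used here gives the strand setting of the counting, reads of the pairs cannot be told apart. The partners had 46 to 106 counts for Gm16712 at Ebi3, 193 to 553 for Apobr at Il27, 4 to 18 for Gm14023 at Il1a and 1 to 3 for Il1bos at Il1b. Apobr thus exceeded Il27, which had 14 to 59 counts, in every library.

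RefSeq start sites were found for 7 of the 10 genes. The 250 bases before the start are shown for Il12b and Il1b, which passed the test below, and for Ebi3, a subunit gene that did not, on the coding strand and with matches to the motifs searched in capitals (GRCm38.p6; Il12b chr11:44399813-44400062, Il1b chr2:129371140-129371389, Ebi3 chr17:55952373-55952622):
Il12b: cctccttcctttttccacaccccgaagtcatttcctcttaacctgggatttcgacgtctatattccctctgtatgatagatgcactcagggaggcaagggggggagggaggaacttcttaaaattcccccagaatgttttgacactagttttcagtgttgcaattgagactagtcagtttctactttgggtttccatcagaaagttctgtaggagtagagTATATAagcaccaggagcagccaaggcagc
Il1b: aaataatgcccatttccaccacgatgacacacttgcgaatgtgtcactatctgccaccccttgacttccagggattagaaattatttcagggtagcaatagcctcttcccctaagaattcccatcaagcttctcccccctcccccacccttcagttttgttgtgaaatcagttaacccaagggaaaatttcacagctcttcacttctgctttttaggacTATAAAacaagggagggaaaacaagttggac
Ebi3: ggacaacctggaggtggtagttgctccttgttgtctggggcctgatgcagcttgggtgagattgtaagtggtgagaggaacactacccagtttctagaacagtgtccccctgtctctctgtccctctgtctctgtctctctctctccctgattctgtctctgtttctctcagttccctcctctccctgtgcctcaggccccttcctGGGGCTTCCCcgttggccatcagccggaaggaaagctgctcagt

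The Il12b and Il1b windows each hold a TATA-type match, TATATA at 30 to 25 bases and TATAAA at 31 to 26 bases before the start, and no other match. TATANA was searched on the plus strand only and occurs in 16.4% of the 32851 RefSeq windows of this length. The Ebi3 window holds 1 match to the NF-kB consensus, GGGGCTTCCC, at 44 to 35 bases before the start, against 3.9% of windows. NF-kB, AP-1 (TGANTCA, in 6.75% of windows) and C/EBP (TTGCNNAA, in 9.56%) were searched on both strands. Members that did not pass in the treatment comparisons held such matches too. Il1a had TATAAA at 32 to 27 bases and an AP-1 match, and Il18 had TATATA at 201 to 196 bases. Il6 had an NF-kB match at 44 to 35 bases, with AP-1 and C/EBP matches, and the Il12a windows held none. TATA-type matches were thus not particular to the genes that passed. Matches are descriptions of the letters and not binding sites.

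The comparison of BiTS with isotype asks how BiTS changed these cultures. Il23a, Il12b and Il1b were lower under BiTS in both sets, by 1.95-fold to 2.33-fold in the fit with the set as a block. Il15, Il18, Il1a and Il6 did not pass the test, and Ebi3 and Il27 were lower in both sets without passing it. Without a term for the set, edgeR's quasi-likelihood test with Benjamini-Hochberg adjustment passed 0 of 13996 genes, 0% of those tested, and 176 genes were at an unadjusted p under 0.05, with 0 of the members other than Il23a among them. DESeq2 without that term also passed 0 genes. With a block for the set, 1.59% of tested genes passed as lower and 1.81% as higher. Of the 8 tested members other than Il23a, 2 passed as lower and 0 as higher. The median log2 fold change of these 8 genes was -0.32, against -0.005 over all tested genes. All log2 fold changes below are from the blocked fit, ± SE with 2 libraries per group.

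Il23a, the p19 subunit of IL-23, was at 23.4 and 22.8 CPM in isotype and at 13.2 and 6.72 CPM in BiTS. Both BiTS libraries lay below both isotype libraries, which differed little from each other. The log2 fold change was -1.22 ± 0.16, with -0.83 in the first set and -1.76 in the second. Il12b, the p40 subunit shared by IL-12 and IL-23, was at 33.04 and 26.5 CPM in isotype and at 21.7 and 9.56 CPM in BiTS, again without overlap. Il12b fell by 0.97 ± 0.15 on the log2 scale (edgeR quasi-likelihood test with block, Benjamini-Hochberg adjusted p = 1.49e-05), with -0.60 in the first set and -1.47 in the second. For both chains of IL-23 the second set thus showed the larger difference, and with 1 library per treatment and set this contrast between sets was not tested.

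Il1b, the precursor gene of the inflammatory cytokine IL-1 beta, was at 10.1 and 6.69 CPM in isotype and at 6.29 and 1.80 CPM in BiTS. The groups did not overlap, although the first BiTS library came close to the second isotype library. Il1b fell by 1.06 ± 0.24 (edgeR, adjusted p = 0.00475). This call rested on BiTS replicate 2, which had 19 Il1b counts. Without that library the value was -0.67 (adjusted p = 0.294), without BiTS replicate 1 it was -1.91, and with the block in DESeq2 the adjusted p was 0.0750. Il27, the p28 subunit of IL-27, was at 3.97 and 2.11 CPM in isotype and at 1.85 and 1.33 CPM in BiTS. Its libraries did not overlap either, and its log2 fold change of -0.93 ± 0.36 did not pass (edgeR, adjusted p = 0.160). Of the 8 tested members other than Il23a, 3 (Il12b, Il27 and Il1b) had both BiTS libraries below both isotype libraries, a pattern found for 9.5% of tested genes. With the block and scaling to the spike-in transcripts in place of TMM, 0 genes and 0 members passed, and the values were -1.01 for Il12b and -1.16 for Il1b (edgeR, adjusted p = 0.9999 for both).

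Ebi3, the partner chain of Il27, was at 12.5 and 7.52 CPM in isotype and at 10.3 and 6.53 CPM in BiTS. The 2 groups overlapped, but within each set BiTS was the lower. The log2 fold change was -0.25 ± 0.18, with a 95% interval from -0.62 to 0.12 (edgeR, adjusted p = 0.582). Il15 was at 11.3 and 5.87 CPM in isotype and at 12.4 and 3.88 CPM in BiTS. Its levels followed the set more closely than the treatment, and its log2 fold change of -0.13 ± 0.20 had an interval from -0.53 to 0.28. The remaining intervals were wide. They ran from -0.26 to 1.51 for Il6, from -1.21 to 1.11 for Il18 and from -1.16 to 0.38 for Il1a. Il6 was the single tested member above 0 in both sets, at 1.66 and 0.825 CPM in isotype and 2.74 and 1.14 CPM in BiTS.

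**Figure D2:**
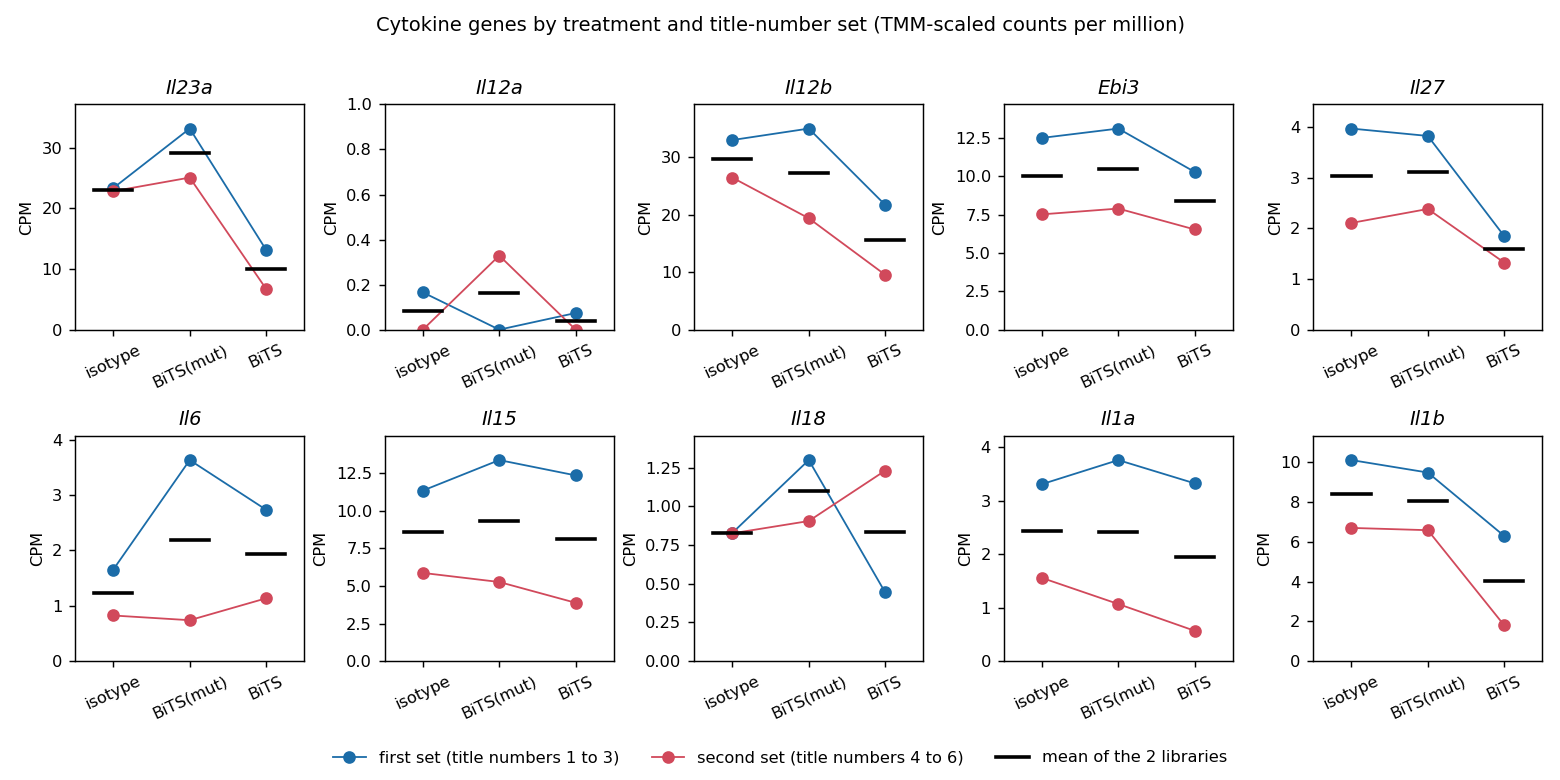
CPM of each cytokine gene in the 3 treatments, with 1 point per library, lines joining the libraries of a set and black bars at the mean of the 2 libraries. The y axes start at 0 and differ in scale. Il23a in BiTS lies at 13.2 and 6.72 CPM, below the 4 other libraries, whereas the points of Il15, Il1a and Il6 separate mainly by set.

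BiTS against BiTS(mut) asks which differences depend on what was altered in the mutated protein. The BiTS libraries are shared with the preceding comparison, so the 2 sets of values are given side by side and not as independent evidence. Without the block, 0% of genes passed, with 76 genes at an unadjusted p under 0.05, 0 of them members other than Il23a, and DESeq2 passed 0 genes. With the block, 0.7% of genes passed as lower and 0.272% as higher in BiTS. Of the 8 tested members other than Il23a, 2 again passed as lower, Il12b and Il1b, and 0 as higher. The median of the 8 genes was -0.41, against 0.0005 over all tested genes.

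Il23a was at 33.2 and 25.1 CPM in BiTS(mut), above isotype and far above the 13.2 and 6.72 CPM in BiTS. The log2 fold change of BiTS against BiTS(mut) was -1.54 ± 0.15, or 2.91-fold lower, with -1.33 and -1.90 in the 2 sets. Il12b was at 35.04 and 19.4 CPM in BiTS(mut). The second of these values lay below the 21.7 CPM of BiTS replicate 1, so the groups overlapped, but within each set BiTS was the lower. Il12b fell by 0.80 ± 0.14 (edgeR with block, adjusted p = 6.73e-04). Without BiTS(mut) replicate 1 the adjusted p was 0.222 and without BiTS replicate 2 it was 0.0665.

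Il1b was at 9.47 and 6.58 CPM in BiTS(mut), above both BiTS libraries, and stood at -0.998 ± 0.24 on the log2 scale, lower in BiTS (edgeR with block, adjusted p = 0.0169). That call was lost with a stricter filter on low counts (edgeR with block, adjusted p = 0.0522). DESeq2 with the block gave -1.10 and no adjusted p, so the call was lost there too. It was also lost without BiTS(mut) replicate 1 (-1.32), without BiTS(mut) replicate 2 (-0.82) and without BiTS replicate 2 (-0.60). Without BiTS replicate 1 the value was -1.84. Il27, at 3.83 and 2.39 CPM in BiTS(mut), had a log2 fold change of -0.97 ± 0.35 that did not pass (edgeR, adjusted p = 0.254). Ebi3 differed by -0.32 ± 0.18 (edgeR, adjusted p = 0.690), with an interval from -0.68 to 0.04. It was at 13.1 and 7.89 CPM in BiTS(mut) and at 10.3 and 6.53 CPM in BiTS, so BiTS was the lower within each set. Of the 8 members other than Il23a, 2 (Il27 and Il1b) had both BiTS libraries below both BiTS(mut) libraries, as had 7.85% of tested genes. With block and spike-in scaling, 0 genes passed here too, with Il12b at -0.69 and Il1b at -0.96 (edgeR, adjusted p = 0.9996 for both). The other 4 members, Il6, Il15, Il18 and Il1a, had intervals that included 0, the widest being that of Il18 from -1.56 to 0.58.

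The ratio of Il23a to Il12b in TPM was 1.02 and 1.25 in isotype, 1.37 and 1.87 in BiTS(mut) and 0.876 and 1.02 in BiTS. In each set it was lowest in BiTS and highest in BiTS(mut). The ratio of Il27 to Ebi3 was 0.364 and 0.321 in isotype, 0.335 and 0.346 in BiTS(mut) and 0.206 and 0.233 in BiTS. Both BiTS values lay below the other 4, although Il27 counts were few. Whether the subunits of 1 cytokine changed by different amounts was not tested, and Il23a had been chosen on its BiTS values.

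**Figure D3:**
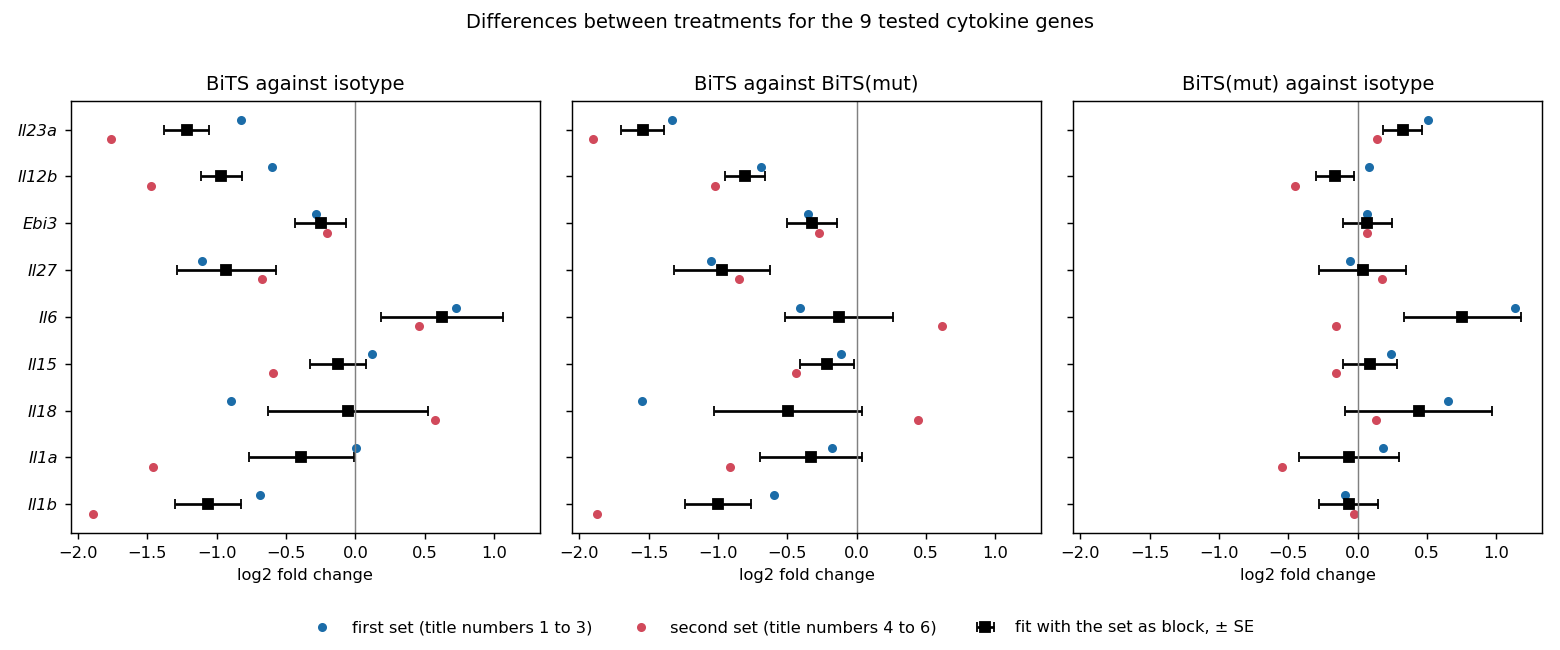
Log2 fold changes of the 9 tested cytokine genes (rows) in the 3 treatment comparisons (panels). Black squares with bars are the fit with the set as block ± SE, and coloured points are the differences within the first and the second set. Il23a lies at -1.22 and -1.54 in the panels with BiTS and at 0.32 in the panel of BiTS(mut) against isotype.

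BiTS(mut) against isotype addresses what the altered protein still did. No member passed in either fit: edgeR's quasi-likelihood test passed 0% of genes without the block, and DESeq2 passed 0, with 41 genes and 0 members at an unadjusted p under 0.05. With the block 0.00714% passed as higher and 0.0429% as lower. Il23a was higher in BiTS(mut) than in isotype in both sets, by 0.51 and 0.14, with a log2 fold change of 0.32 ± 0.14 (edgeR, adjusted p = 0.9997). Of the 8 tested members other than Il23a, 1 (Il18) had both BiTS(mut) libraries above both isotype libraries, a pattern seen for 6.82% of tested genes. Il18 counts were few, at 20 and 11 in BiTS(mut) and 10 and 9 in isotype. Il23a showed the pattern too but is not counted, since the list was chosen on its BiTS values. Il12b was at -0.16 ± 0.14 and Ebi3 at 0.07 ± 0.18, with intervals from -0.44 to 0.11 and from -0.28 to 0.42. For Il1b the interval ran from -0.50 to 0.37, and for Il6, at 3.63 CPM in BiTS(mut) replicate 1 and 0.740 CPM in replicate 2, from -0.10 to 1.61.

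Most of these genes also differed between the sets. With treatment in the fit, 8 of 9 tested members were lower in the second set (edgeR quasi-likelihood test, Benjamini-Hochberg adjusted), while 26.9% of all tested genes were lower and 25.9% higher. The drop was steepest for Il1a (-1.71 ± 0.32), Il6 (-1.56 ± 0.35) and Il15 (-1.31 ± 0.16). Il15, for example, was at 11.3 to 13.4 CPM in the first set and at 3.88 to 5.87 CPM in the second, without overlap. Il1b (-0.82 ± 0.19), Il12b (-0.74 ± 0.12), Il27 (-0.71 ± 0.28) and Ebi3 (-0.71 ± 0.15) followed, and Il23a differed least among those that passed, at -0.39 ± 0.12. Il18 did not pass, at 0.20 ± 0.44. The calls of 3 members were lost when 1 library was left out. Il23a was at -0.24 without BiTS replicate 1 (adjusted p = 0.115) and without BiTS replicate 2 (0.121), Il6 at -1.15 without BiTS(mut) replicate 1 (0.0637), and Il27 was lost without either isotype or either BiTS(mut) library (adjusted p = 0.113 to 0.145). Il27 was also lost with DESeq2 (-0.71, adjusted p = 0.173). Of 17 tested dendritic cell markers, 16 were lower in the second set and 1, Batf3, was higher (0.36), with a median of -1.01. Of 7 macrophage and monocyte markers, 4 were lower and 1, Ly6c2, was higher (2.21), with a median of -1.13. For CD8 T cell markers the median was 0.30, and 6 of 9 were higher and 0 lower. The part of these cells in the difference of the cytokine genes was not tested. The balance over all genes depended on the scaling: with spike-in scaling 6062 genes were lower in the second set and 61 higher, and 8 members passed as lower.

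**Figure D4:**
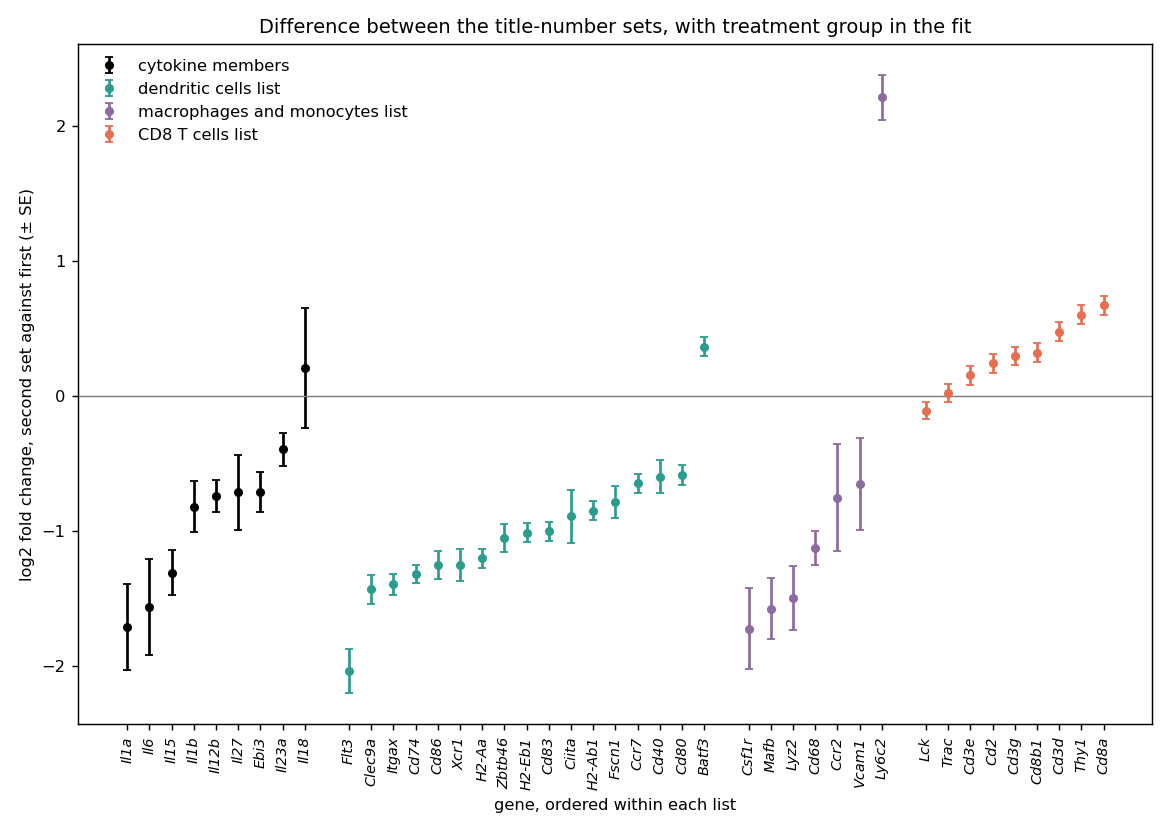
Log2 fold change of the second against the first title-number set, ± SE, for the 9 tested cytokine genes and for the tested genes of 3 marker lists, with each list in order of its values. The cytokine genes range from -1.71 for Il1a to 0.20 for Il18, the dendritic cell markers lie below 0 apart from Batf3, and the CD8 T cell markers lie between -0.11 and 0.67.

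Dendritic cell markers also differed between treatments. With the block, 1.59% of all tested genes passed as lower in BiTS than in isotype. The 17 tested markers had a median of -0.31 against isotype, 0 passed as higher and 6 passed as lower. They were Ciita, the master regulator of MHC class II (-1.39 ± 0.25), the costimulatory genes Cd40 (-0.85 ± 0.15) and Cd86 (-0.61 ± 0.13), the maturation marker Cd83 (-0.55 ± 0.09), Xcr1 (-0.49 ± 0.14) and H2-Aa (-0.31 ± 0.09). Against BiTS(mut), 5 of 17 were lower, Ciita, Cd40, Cd86, Cd83 and the actin-bundling gene Fscn1, and 0 were higher. Of all tested genes, 0.7% passed as lower there. Without the block 0 markers passed in either comparison. In that edgeR fit 1 marker against isotype and 0 against BiTS(mut) were at an unadjusted p under 0.05. With block and spike-in scaling 0 genes passed in either comparison. The summed level of the list within the second set was 1475 CPM in isotype, 1554 CPM in BiTS(mut) and 1459 CPM in BiTS. In the first set it was 2879 CPM in isotype, 2938 CPM in BiTS(mut) and 2506 CPM in BiTS. These sums hold Ccr7, a homing receptor gene that T cells express too, at 433 CPM in isotype, 459 CPM in BiTS(mut) and 508 CPM in BiTS in the second set. Without Ccr7, a sum computed after the data were seen, the list was at 1042, 1095 and 951 CPM in that order in the second set and at 2177, 2165 and 1791 CPM in the first, so that BiTS was lowest in each. Of 9 CD8 T cell markers, Cd8a, Cd8b1 and Lck were higher in BiTS than in isotype (0.34 to 0.41), and 0 passed against BiTS(mut). Of all tested genes, 1.81% passed as higher against isotype. Per 1000 CPM of the dendritic cell sum, Il23a was at 8.11 and 15.5 CPM in isotype, 11.3 and 16.1 CPM in BiTS(mut) and 5.25 and 4.604 CPM in BiTS. Il12b by the same measure was at 11.5 and 18.0 CPM in isotype, 11.9 and 12.5 CPM in BiTS(mut) and 8.68 and 6.55 CPM in BiTS. For Il1b these values were 3.51 and 4.54 CPM in isotype, 3.23 and 4.23 CPM in BiTS(mut) and 2.51 and 1.23 CPM in BiTS, and for Ebi3 4.34 and 5.096 CPM, 4.46 and 5.08 CPM, and 4.101 and 4.48 CPM. Il12b and Il1b, and Il23a, which was chosen on its BiTS values, had both BiTS values below the 4 others, also when Ccr7 was left out of the sum (Il12b at 12.1 and 10.1 CPM in BiTS against 15.2 to 25.4 CPM elsewhere). The share of all tested genes with this pattern by this measure was not computed, so how common it is cannot be told. The Ebi3 values overlapped between the groups, although BiTS was lowest within each set. Which cells held the RNA of Il23a and the other cytokine genes was not measured, so these values are not levels per dendritic cell. The part of cell number and of cell state in the lower cytokine RNA was not tested.

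With the block, 1.59% of all tested genes passed as lower in BiTS than in isotype. Of the other cytokines and chemokines of antigen-presenting cells, a list chosen with earlier results known, 9 of 14 could be tested. The median of these 9 was -0.52, and 5 passed as lower. These were the chemokines Ccl17 (-1.03 ± 0.14), Ccl22 (-0.73 ± 0.09) and Cxcl9 (-0.39 ± 0.11), the IL-6 family cytokine Lif (-0.52 ± 0.09) and Tnf (-0.32 ± 0.10), the last with an adjusted p of 0.0499 in edgeR. Against BiTS(mut) only Ccl17 and Ccl22 passed, both lower, where 0.7% of all tested genes passed as lower. Il10, Il7, Tnfsf13b, Csf1 and Csf3 failed the filter on low counts, so the anti-inflammatory cytokine IL-10, at 0.183 to 0.813 CPM, could not be judged. T cells can also make Tnf and Lif, and the source of the RNA was not measured.

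Of 13 receptor chains through which these cytokines act, 12 were tested, and 0 passed in any treatment comparison, with or without the block. With the block, 1.59% of all tested genes passed as lower against isotype and 0.7% against BiTS(mut). Il12rb1, the chain shared by the IL-12 and IL-23 receptors, was at 124 to 157 CPM and Il12rb2, the chain specific for IL-12, at 97.03 to 195 CPM. Il23r, the specific chain of the IL-23 receptor, was far lower at 0.550 to 2.73 CPM, and its log2 fold changes of -0.59 against isotype and -0.66 against BiTS(mut) were the lowest of the list. Il27ra was at 46.7 to 67.6 CPM, and Il1r1 failed the filter at 0.166 to 0.568 CPM. Between the sets 4 of the 12 tested chains were higher and 3 lower in the second. Of all tested genes, 25.9% were higher and 26.9% lower there, so these counts do not set the chains apart. Among the chains that passed were Il18r1 (1.98 ± 0.12) and its partner Il18rap (1.21 ± 0.20) on the high side. Il6st, the signal-transducing gp130 chain (-1.01 ± 0.07), was on the low side. Il18r1 was at 6.36 to 8.36 CPM in the first set and at 28.6 to 31.1 CPM in the second.

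Few of the downstream and regulatory genes passed between treatments, as was so for all tested genes. With the block, 1.59% of all tested genes passed as lower and 1.81% as higher against isotype, and 0.7% and 0.272% against BiTS(mut). These lists are short, so such counts do not set them apart from all tested genes. Of 8 JAK and STAT genes and 7 inflammasome genes, which include Casp1 and Nlrp3, 0 passed in any treatment comparison. Their blocked values against isotype ranged from -0.20 for Jak2 to 0.19 for Stat5b and from -1.09 for Nlrc4 to 0.20 for Aim2. Of 5 antagonists and decoys, only Socs1, a feedback inhibitor of cytokine signalling, was lower in BiTS than in isotype (-0.33 ± 0.09), and 0 passed against BiTS(mut). Il1rn, the IL-1 receptor antagonist gene, was at -0.93 and -1.17 in these comparisons without passing. Among 11 transcriptional inducers of these cytokines, Irf8 was lower against isotype (-0.33 ± 0.08) and the NF-kB gene Nfkb2 against BiTS(mut) (-0.32 ± 0.08). Irf8 encodes a transcription factor that can activate Il12b. The cell source of its RNA was not measured, and a link to Il12b was not tested. Rel, Rela and Batf3 did not pass in the treatment comparisons.

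Of 12 genes that respond to these cytokines in lymphocytes, 10 were tested. Ifng, encoding interferon gamma and a classical target of IL-12, was at 83.7 and 198 CPM in isotype, 81.8 and 151 CPM in BiTS(mut) and 33.8 and 56.9 CPM in BiTS. Its log2 fold change was -1.57 ± 0.10 against isotype and -1.35 ± 0.10 against BiTS(mut). In this list, chosen with earlier results known, 3 genes were lower in BiTS than in isotype with the block (Ifng, Prf1 and Gzmb). Against BiTS(mut) 2 were lower (Ifng and Prf1), and 0 were higher in either comparison. Of all tested genes, 1.59% passed as lower against isotype and 0.7% against BiTS(mut). Between the sets Ifng differed in the opposite direction to the 8 cytokine genes that passed, at 0.98 ± 0.08 higher in the second. The transcription factor genes Tbx21 and Eomes did not pass in the treatment comparisons. Il17a, a product of IL-23-responsive cells, was at 0 to 0.130 CPM, at or below the limit that a count of 0 allows.

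After the mean of each set was subtracted, the profiles of Il23a and Il12b over the 6 libraries correlated at 0.933 (Pearson's r of log2(CPM + 1)), and without the subtraction at 0.882. With the subtraction, pairs of tested members ran from -0.41 (Il6 with Il1b) to 0.979 (Ebi3 with Il27). Il1b correlated with Il12b at 0.954 and with Il23a at 0.95, so a high value was not particular to the chains of IL-23. Il23a had also been chosen on its BiTS values. The genes most like Il23a by the first measure, among those with a mean of at least 5 CPM, included Ensa, Cd200, Cr1l and Nebl, with r from 0.998 to 0.999. For Il12b they were Ubqln4, Styx, Spred1, Slc39a1 and Gng5, for Il1b Akip1, Fam76a, Spag9, Enox2 and Atp6v0c, and for Il27 Nfkbie, Swap70, Cpeb4, Mtmr4 and Ccl22. For Ebi3 the list was Coch, Acsf3, Cyba, Zbtb32 and Stxbp3, and for Il15 it included Ppip5k2, Kif1bp, Jagn1 and Pcyt1a. For the low genes it was Efl1, Map3k3, Arel1, Bbs4 and Pigs with Il6, Hk1, Iqgap1, Jdp2, Ncaph and Clcn5 with Il18, and Tmem97, Mllt1, Cept1, Rangap1 and Nefh with Il1a. All points share libraries and depth, and 26 to 218 of 9791 or 9792 genes reached an r of 0.95 with a given member, so these names are a description of 6 libraries. Without subtraction of the set means, 14 of the 45 pairs had an r below 0, among them Acsf3 with Ebi3 (-0.711), Ubqln4 with Il12b (-0.461), Akip1 with Il1b (-0.543) and Tmem97 with Il1a (-0.801), so the likeness of these pairs holds only within sets.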

How the data were processed

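The authors deposited raw counts per gene for 6 libraries, 1 table each, with exon intervals and lengths per the file headers. The submitters' processing notes name mm10 and DESeq2. The aligner, counter, annotation release and strand setting: not given in the sources used here. Symbols came from GENCODE M21 by identifier for 49412 of 49671 genes, and the 259 others held 0.0133% of counts. The 92 spike-in transcripts, 3.36% to 7.54% of counts, were left out of totals and scaling.

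After TMM scaling and filterByExpr, the quasi-likelihood test of edgeR 4.0.16 (R 4.3.3) was run two-sided over all 6 libraries, with Benjamini-Hochberg adjustment over 13996 genes and a threshold of 0.05. The main design had 1 coefficient per group. The residual degrees of freedom were 3 per gene plus 3.14 from the spread shared over genes, and 2 plus 45.9 with a block for the title-number set, so a small blocked p draws mostly on the shared spread and little on the gene's own libraries. The pairing into sets comes from the title numbers, which the labels do not explain. Deviations from group means (log2(CPM + 1)) correlated at 0.793, 0.735 and 0.811 between libraries of 1 set, and with 2 libraries per group these are the only distinct correlations. Blocked values are given because the block changes the calls. TPM used the deposited lengths. Intervals of differences are 95% t intervals. The blocked test was checked on simulated data with a built-in set effect and the same fixed spread for all genes. Changes were simulated only in genes with levels above those of Il27, Il6, Il18 and Il1a. The check set no condition for the fit without the block and does not cover genes as low as these.

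The members and the gene lists were chosen with earlier results of these data known. All 10 members are named whatever their result. From each pathway list up to 4 genes that passed are named per comparison, by smallest p, with up to 3 others, and 5 like genes per tested member, of which 2 are not reported here. Alternatives were DESeq2 1.42.0, RLE size factors, library totals alone, spike-in scaling, no filter, a filter at 5 CPM in 2 or more libraries, the 4 libraries compared on their own, and leaving out each library. Spike-in scaling without the block and the dendritic cell sum without Ccr7 were added after the data were seen. Promoter windows are from RefSeq. RefSeq windows for Il23a, Il27 and Il15 and protein sequences were not used here.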

Additional observations from a re-analysis of the deposited data

How the results depend on the processing

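All counts of members here include Il23a, on whose BiTS values the list was chosen. Without it the blocked fit passed 2 members as lower in each BiTS comparison, where 1.59% and 0.7% of all genes passed as lower. With the replicate block, 3 members passed for BiTS against isotype (2 with DESeq2 and 3 with each of the RLE, library-total, unfiltered, CPM-filtered and 4-library settings) and 3 for BiTS against BiTS(mut) (2 with DESeq2, 2 with the CPM filter, 3 in the others). With spike-in scaling 0 members passed in any treatment comparison, and with the block it gave a median over all genes of -0.74 between the sets, 0.053 for BiTS against isotype, 0.18 for BiTS against BiTS(mut) and -0.12 for BiTS(mut) against isotype. Il23a ranged from -0.92 to -1.66 and from -1.26 to -1.99 over 13 blocked settings in the 2 BiTS comparisons, and with block and spike-in scaling stood at -1.26 and -1.43, where Il12b was at -1.01 and -0.69 and Il1b at -1.16 and -0.96. Unblocked and unfiltered, the count for BiTS against BiTS(mut) was 1, Il23a, and 0 without it. Leaving out 1 library, with or without the block, gave 0 to 3 members in each BiTS comparison. Between the sets 5 members passed with the CPM filter, which tests fewer genes.

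Pathway-list genes passing with the block numbered 10 against isotype (6 with DESeq2, 10 RLE, 10 library totals, 9 unfiltered, 9 CPM filter, 5 with 4 libraries, and 2 unblocked and unfiltered) and 5 against BiTS(mut) (5, 5, 5, 6, 4, 12 and 1 in the same order), with 0 to 13 and 0 to 12 when a library was left out, and 0 to 4 for BiTS(mut) against isotype. All genes passing with the block numbered 476 against isotype (155, 461, 412, 458, 409, 295 and 11 in that order, and 0 with block and spike-in scaling), 136 against BiTS(mut) (51, 148, 124, 155, 102, 442 and 3, and 0 with block and spike-in scaling) and 7 for BiTS(mut) against isotype (2, 7, 6, 14, 5, 7 and 5, and 1 with spike-in scaling). Leaving out a library gave 0 to 937, 0 to 435 and 0 to 132.

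Signs turned only for log2 fold changes that had not passed. For BiTS against isotype these were Il15 at 0.018 with spike-in scaling and Il18 at 0.028 with block and spike-in scaling, and without 1 library Ebi3 ran from -0.62 to 0.17, Il15 from -1.15 to 0.52, Il18 from -1.02 to 0.73, Il1a from -2.09 to 0.44 and Il6 from -0.14 to 1.24. For BiTS against BiTS(mut), Il6 was at 0.0051 with block and spike-in scaling, and without 1 library Ebi3 ran from -0.69 to 0.10, Il15 from -1.27 to 0.64, Il18 from -1.44 to 0.32, Il1a from -2.09 to 0.90 and Il6 from -0.96 to 1.40. For BiTS(mut) against isotype, block and spike-in scaling gave Ebi3 -0.037, Il27 -0.042, Il15 -0.059 and Il1a -0.17. Il1a, at 0.00075 in the unblocked fit, was at -0.062 with the block, -0.0079 with DESeq2, -0.000298 with RLE and -0.017 with library totals, and with the block at -0.16 (DESeq2), -0.063 (RLE), -0.086 (library totals), -0.049 (unfiltered) and -0.0496 (4 libraries). Without 1 library Ebi3 ran from -0.35 to 0.48, Il12b from -0.63 to 0.24, Il15 from -0.72 to 0.67, Il18 from -0.22 to 1.003, Il1a from -1.20 to 0.65, Il1b from -0.36 to 0.26, Il27 from -0.36 to 0.56 and Il6 from -0.75 to 1.54. Between the sets Il18 was at -0.57 with spike-in scaling and ran from -0.31 to 0.70 without 1 library. The cause was not tested. Counts under 60 per library limit Il27, Il6, Il18 and Il1a.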
